A study of Rattus norvegicus with 32 samples.

Results

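The genes described here belong to families whose proteins hold, dock and fuse vesicles, at synapses and at other membranes of the cell. They are synaptotagmins, SNARE proteins with their syntaxin-binding partners, complexins and synapsins, measured in the hippocampus of adult rats. Members were chosen by gene symbol alone, by a rule that takes the numbered synaptotagmins (Syt), syntaxins (Stx), Vamp genes, Snap25, Snap29, Snap47, Snap91, the synapsins Syn1, Syn2 and Syn3, the syntaxin-binding proteins (Stxbp) and the complexins (Cplx). It found 56 members among the 32883 genes of each count table: 17 synaptotagmins, 8 target SNAREs grouped with the plasma membrane (of which Snap29 and Snap47 work mainly on inner membranes), 9 other syntaxins of endosomes, Golgi and endoplasmic reticulum, 7 vesicle SNAREs of the Vamp family, 7 syntaxin-binding proteins, 4 complexins, 3 synapsins and 1 clathrin assembly protein, Snap91. Snap23, which the rule also names, has no entry in the tables.

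A synaptic vesicle fuses with the presynaptic membrane when a vesicle SNARE (Vamp2) zips into a bundle with target SNAREs of the plasma membrane such as Snap25. Some synaptotagmins, such as Syt1, bind calcium and set the speed of release, and complexins hold and prime the partly zipped bundle. Tomosyns (Stxbp5, Stxbp5l) and amisyn (Stxbp6) compete for the SNAREs and restrain fusion. Synapsins coat vesicles and hold a reserve of them behind the release site, and most hippocampal nerve terminals use these same protein families.

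RNA was sequenced from the hippocampus of 32 Sprague-Dawley rats at 65 days of age, 16 males and 16 females, with 4 rats in each of 4 diet groups per sex. IS rats came from dams kept on iron-sufficient food, and ISch rats from such dams whose food was supplemented with choline during the later part of pregnancy. FID rats came from dams on iron-deficient food from early pregnancy until the first week after birth and on iron-sufficient food from then on, and FIDch rats from dams that received both this regime and the prenatal choline. The diets were given to the dams. The study states that 1 male of a litter was used in each experiment, but it reprocessed RNA-seq data of an earlier study. Whether this held for the males sequenced here is not stated. For the females, litter membership is not given in the sources used here. Males and females differed in RNA extraction kit and sequencing batch as well as in sex (batch I for males, batch II for females), so that sex, kit and batch cannot be told apart.

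Between 3515806 and 9517503 reads were counted on genes in a male library, the smallest in FIDch replicate 2, and between 18439999 and 26616318 in a female library. Levels below are CPM, counts scaled to the library total after TMM normalisation within a sex, and they compare rats for 1 gene and not genes with each other, since no transcript lengths were at hand. At these depths 3 counts, the most that a count of 0 allows at a confidence of 95%, stand for 0.315 to 0.839 CPM in males and 0.113 to 0.163 CPM in females, for counting error only. The study's thresholds were applied to each pair of groups: a gene was called where its log2 fold change lay beyond 0.2 in either direction and its unadjusted p was under 0.05. The p came from edgeR's quasi-likelihood test, chosen here, whereas the study ran edgeR inside other software. The Benjamini-Hochberg adjusted p over all genes tested is given beside it, with the standard error (SE) of the log2 fold change. Tests of all 4 groups at once, of the interaction of iron and choline, and of the difference between the sexes were called at an adjusted p under 0.05.

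The libraries carried most of the marker genes of hippocampal tissue that were looked at. Prox1, which marks dentate granule cells, ranged from 89.4 to 145 CPM in males and from 112 to 183 CPM in females, and the 5 hippocampal markers Prox1, Wfs1, Neurod6, Zbtb20 and Fibcd1 summed to 663 to 808 CPM in males and 669.7 to 1087 CPM in females. Wfs1, Neurod6 and Prox1 carry these sums, for Fibcd1 was at 0 in 5 male and 2 female libraries and at most 6.11 CPM in any, and Zbtb20 ran from 3.99 to 48.6 CPM in males. Choroid plexus RNA stood out in 1 male library, FID replicate 4, with a far smaller signal in FID replicate 2. Ttr, a marker of this tissue, had at most 5.92 CPM in 14 males, 13.97 in FID replicate 2 and 350.0 in FID replicate 4. The 7 choroid plexus markers summed to 401 CPM in male FID replicate 4, 19.5 CPM in male FID replicate 2 and at most 18.6 CPM in a female. Otx2 had at most 3 counts in every library. Ttr was called higher in male FID against IS and lower in male FIDch against FID. In females, with 4 of the 7 tested, Ttr and Aqp1 were lower in FIDch than in IS and Ttr was lower in FIDch than in FID, where FID replicate 3 had 14.5 CPM. Calls lost without FID replicate 4 are named as such below.

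Of the 56 members, 51 passed the filter on low counts in each comparison between 2 male groups, and 52 or 53 in the females. Cplx4, Syt8 and Syt15 passed in no test, with at most 4 counts in any male and 11 in any female library, Stx11 failed in all male tests and in 3 of the 4 female pairs, and Vamp5 failed in the 4 male pairs. These 5 are named for their low counts, after their values were seen. Together the 56 members took 1.39% to 1.49% of a male library's counts and 1.31% to 1.49% of a female one's. The comparison of FID with IS asks what early iron deficiency leaves in the adult, ISch with IS what prenatal choline does to iron-sufficient rats, and FIDch with IS and with FID what choline adds after iron deficiency. Comparisons that share a group are not independent of each other, and their values are set side by side without a count of agreement.

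In males, members were called mostly in FID against IS and in FIDch against FID, and none passed edgeR's adjustment over all genes. Of the 4 male comparisons, FIDch against FID also had the most calls over all genes (1810) and FID against IS the fewest (640). In FID against IS, 4 of 51 members were higher and 2 lower, 7.84% and 3.92%, beside 2.34% of all 13851 genes tested higher and 2.28% lower. In ISch against IS 1 member was higher, beside 4.52% of all 13956 genes tested higher and 3.54% lower. In FIDch against IS 1 member was lower, beside 2.91% of all 13693 genes tested higher and 3.21% lower. In FIDch against FID 2 members were higher and 4 lower, 3.92% and 7.84%, beside 5.74% of all 13945 genes tested higher and 7.24% lower. The count of members with an edgeR adjusted p under 0.05 was 0 in each of these 4 comparisons, beside 0%, 0.208%, 0.131% and 1.28% of all genes. At an unadjusted p under 0.05 there were 7, 3, 4 and 10 members, beside 5.68%, 10.5%, 7.89% and 17.8% of all genes. DESeq2's adjusted calls were 0, 0, 1 and 2 members among 2, 70, 46 and 280 genes. With each library left out in turn, the number called ranged from 3 (without IS replicate 1) to 8 (without IS replicate 2) in FID against IS, from 0 (without ISch replicate 1 or 2) to 3 (without IS replicate 4) in ISch against IS, from 1 to 4 (without FIDch replicate 3) in FIDch against IS, and from 4 (without FID replicate 2 or 4 or FIDch replicate 1) to 8 (without FID replicate 1) in FIDch against FID.

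In females, members were called mostly in ISch against IS and in FIDch against FID, the 2 female comparisons that also had the most calls over all genes. In FID against IS, 1 of 52 members was higher and 1 lower, beside 3.08% of all 14632 genes tested higher and 3.40% lower. In ISch against IS, 2 members were higher and 5 lower, 3.85% and 9.62%, beside 5.14% of all 14466 genes tested higher and 5.15% lower. In FIDch against IS 1 member was higher, beside 4.16% of all 14662 genes tested higher and 4.82% lower. In FIDch against FID, 2 of 53 members were higher and 5 lower, 3.77% and 9.43%, beside 5.59% of all 14680 genes tested higher and 7.07% lower. An edgeR adjusted p under 0.05 was reached by 0, 3, 1 and 1 members in these 4 comparisons, beside 0.191%, 2.54%, 0.907% and 2.28% of all genes tested. DESeq2 gave 2, 7, 1 and 3 in the same order, among 194, 678, 392 and 816 genes that it called over all genes, and edgeR with the 4 groups in a single fit gave 0, 3, 0 and 4, so these adjusted counts depend on the fit. An unadjusted p under 0.05 was had by 5, 14, 3 and 10 members, beside 11.2%, 16.3%, 12.9% and 18.0% of all genes. With 1 library left out the number called was 2 to 4 in FID against IS (4 without FID replicate 3), 5 to 11 in ISch against IS (5 without ISch replicate 2, 11 without ISch replicate 1), 1 to 3 in FIDch against IS (3 without FIDch replicate 3 or 4) and 4 to 9 in FIDch against FID (4 without FID replicate 1 or 2, 9 without FIDch replicate 3).

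Shifts of the members as a whole were small. Their median log2 fold change was 0.02 in male FID against IS, 0.01 in ISch against IS, 0.02 in FIDch against IS and -0.06 in FIDch against FID, while all genes tested had -0.01, -0.00070, 0.01 and -0.00033. Female medians were 0.02, -0.04, -0.03 and -0.05 in the same order, beside 0.00028, -0.0037, -0.00027 and -0.0013 for all genes.

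**Figure D1:**
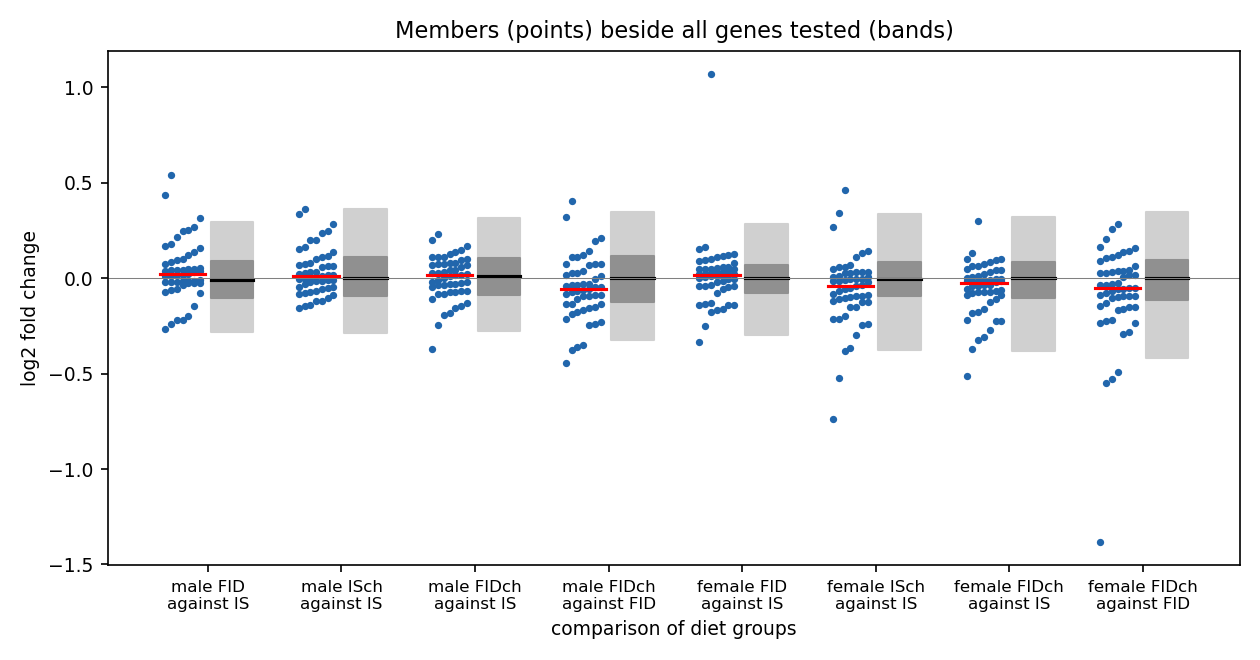
Log2 fold change (vertical axis) of each member tested (blue points, with the members' median as a red line) beside all genes tested (dark grey band from the 25th to the 75th percentile, light grey band from the 5th to the 95th, black line at the median) in the 8 comparisons on the horizontal axis. The members' medians lie between -0.06 and 0.02, and the farthest points are Cplx3 in female FID against IS (1.07) and in female FIDch against FID (-1.38).

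Tested over the 4 diet groups at once, no male member differed at an edgeR adjusted p under 0.05 (0 of 52, with 8 at an unadjusted p under 0.05 and 1, Snap25, by DESeq2), where 0.748% of all 14314 genes passed the adjustment and 14.3% the unadjusted p. Without FID replicate 3 the male count was 1. In females 4 of 53 members passed it, or 7.55% beside 5.34% of all 14975 genes, and 19 had an unadjusted p under 0.05, which 22.5% of all genes had. The 4 were Stxbp6 (edgeR adjusted p = 0.00233), Syn1 (0.00908), Stx1a (0.0156) and Cplx3 (0.0466). The first 3 passed it in each of the 16 fits with 1 library left out and under each other setting tried, and Cplx3 lost it in 11 of those 16 fits, with adjusted p from 0.00310 to 0.170 over all settings. Without female FIDch replicate 4 the number was 10, and without ISch replicate 1 it was 9. DESeq2 also gave 10.

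No member passed the test of an interaction between iron and choline. The edgeR count was 0 of 52 in males (7 at an unadjusted p under 0.05, 0 by DESeq2) and 0 of 53 in females (5 at an unadjusted p under 0.05, 0 by DESeq2). Over all genes the adjusted calls were 0.00699% in males and 0.00668% in females, and 15.4% and 9.18% had an unadjusted p under 0.05. The members with the lowest p were Syt4, which had an interaction of -0.30 (SE 0.088, edgeR adjusted p = 0.173) on the log2 scale in males, and Cplx3, with -1.72 (SE 0.46, edgeR adjusted p = 0.267) in females.

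**Figure D2:**
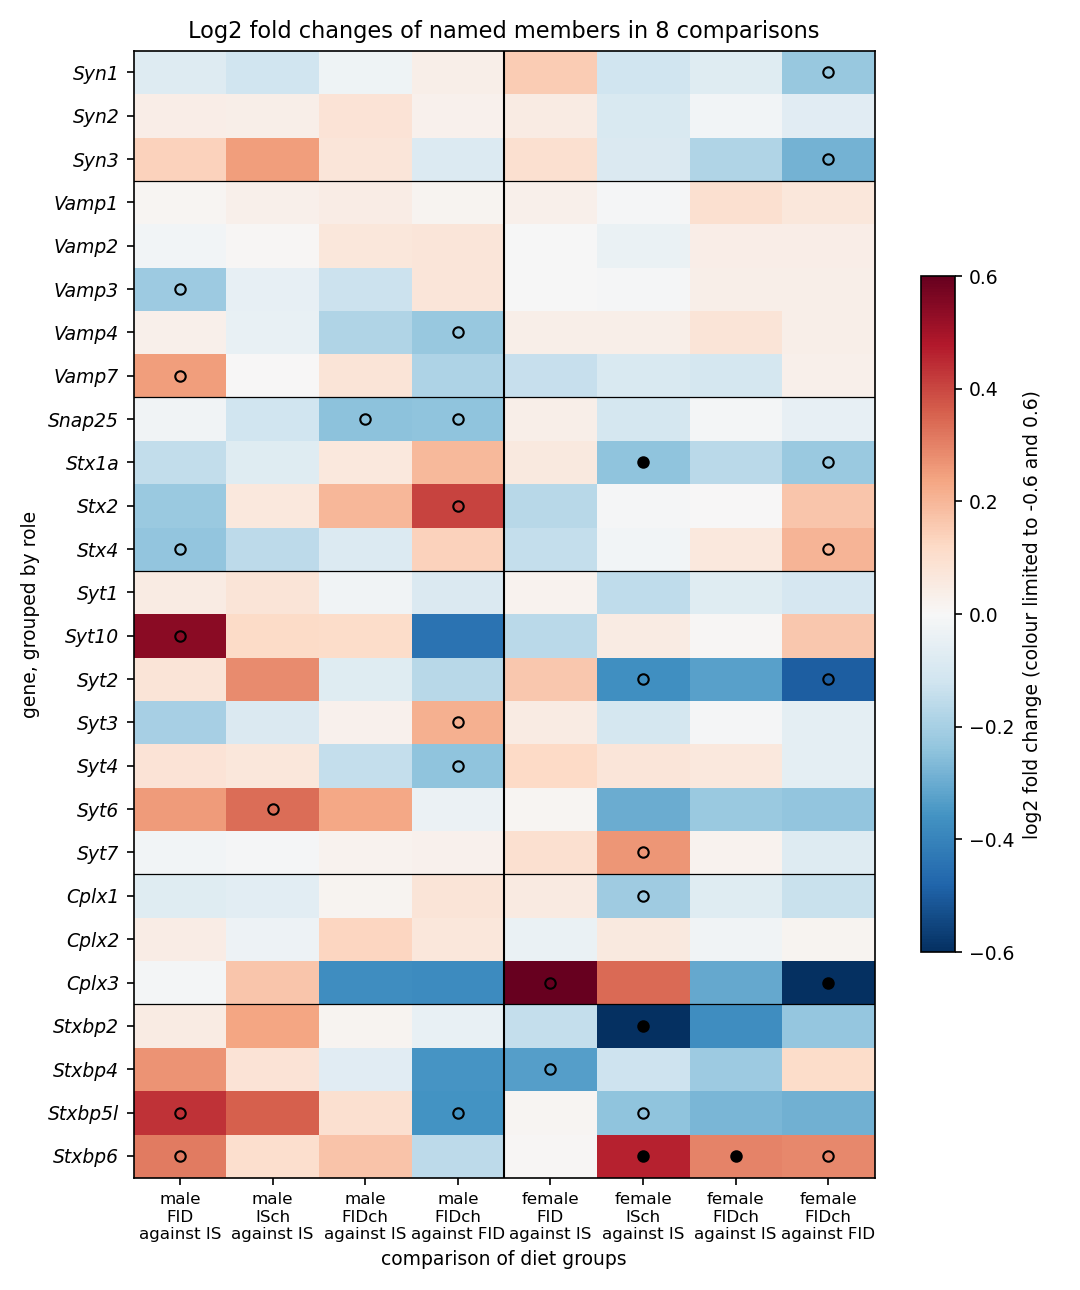
Log2 fold changes (colour, limited to -0.6 and 0.6) of the 26 members named in the text by rule, in lines grouped by role, for the 4 male and 4 female comparisons in columns. Open circles mark calls at the study's thresholds and filled circles those that also had an adjusted p under 0.05, which are Stx1a, Stxbp2 and Stxbp6 in female ISch against IS, Stxbp6 in female FIDch against IS and Cplx3 in female FIDch against FID.

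Among the synapsins, Syn1 passed the test over the 4 female diets. Synapsin I tethers vesicles to one another and to actin. Its levels in females were 723, 674, 701 and 701 CPM in IS, 666, 645, 622 and 643 in ISch, 753, 755, 822 and 782 in FID and 623, 659, 730.5 and 647 in FIDch. Every FID female lay above every other female, and every ISch female lay below every IS female, while FIDch overlapped both IS and ISch. Syn1 was 0.15 log2 higher in FID than in IS (SE 0.038, edgeR adjusted p = 0.15), under the fold limit of the criterion, and its log2 fold change in ISch against IS was -0.12 (SE 0.038, edgeR adjusted p = 0.136). In FIDch against FID it was called, with a log2 fold change of -0.23 (SE 0.054, edgeR adjusted p = 0.0581), a call that missed the fold limit without FID replicate 3 or FIDch replicate 1. Male Syn1 ranged from 752 to 900.1 CPM with overlapping groups, and the difference between the sexes in FID against IS was 0.21 (SE 0.068, edgeR adjusted p = 0.358). Syn3 was called in female FIDch against FID at -0.28 (SE 0.12, edgeR adjusted p = 0.257), with overlapping groups, and lost the call without FID replicate 1 or 2 or FIDch replicate 2 or 4 and with the 4 groups in a single fit. Syn2, the other abundant synapsin of forebrain terminals, was called in no comparison and had log2 fold changes from -0.09 to 0.08. In the RefSeq annotation Syn1 overlaps Araf and Timp1, Syn2 overlaps Timp4 and Syn3 overlaps Timp3 and Fbxo7, and whether reads were counted by strand is not given in the sources used here. Cplx2, Snap25, Stxbp4, Stxbp5l, Syt1, Syt6, Vamp3 and Vamp7 overlap other genes as well.

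The promoters of Stxbp6, Stx1a and Syn1 are shown because these 3 genes passed the test of the 4 female diets under each setting tried. Each is the run of 250 bases before the start of the gene in RefSeq's GRCr8 table, 5′ to 3′ on the gene's own strand, at chr6:67884339-67884588 (minus strand), chr12:27306472-27306721 (minus strand) and chrX:3725495-3725744 (plus strand).
Stxbp6: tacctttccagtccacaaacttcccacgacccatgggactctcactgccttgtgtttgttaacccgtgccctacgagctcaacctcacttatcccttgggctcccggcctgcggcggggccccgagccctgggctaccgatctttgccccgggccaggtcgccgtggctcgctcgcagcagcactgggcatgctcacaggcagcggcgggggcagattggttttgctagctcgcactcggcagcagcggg
Stx1a: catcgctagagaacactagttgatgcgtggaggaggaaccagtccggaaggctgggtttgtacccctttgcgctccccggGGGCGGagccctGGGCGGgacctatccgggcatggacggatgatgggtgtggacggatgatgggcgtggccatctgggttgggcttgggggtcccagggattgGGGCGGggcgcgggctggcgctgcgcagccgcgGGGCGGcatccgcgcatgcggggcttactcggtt
Syn1: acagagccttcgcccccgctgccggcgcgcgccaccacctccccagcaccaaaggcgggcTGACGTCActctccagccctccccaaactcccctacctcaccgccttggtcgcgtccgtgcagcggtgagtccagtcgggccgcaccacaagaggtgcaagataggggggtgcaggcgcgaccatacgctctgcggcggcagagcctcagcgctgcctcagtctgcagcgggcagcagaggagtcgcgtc
Capitals mark matches, on either strand, to the GC box GGGCGG, the cyclic AMP response element TGACGTCA, the core promoter box TATAAA and the E box CACGTG. Stx1a held 4 GC boxes, Syn1 held 1 cyclic AMP response element, and Stxbp6 held none of the 4 motifs. Of all 33469 promoters of this length, 30.5% held the first, 1.59% the second, 12.9% the third and 5.59% the last of these, and among the 55 promoters of the 43 members with an entry these shares were 58.2%, 3.64%, 12.7% and 9.09%. A match describes the letters only.

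Of the vesicle SNAREs, the synaptic forms Vamp1 and Vamp2 were called in no comparison, with log2 fold changes from -0.04 to 0.10. Vamp3, Vamp4 and Vamp7 had 1 male call each, in differing directions and without passing the adjustment. Vamp7, a SNARE of endosomes and lysosomes that tetanus toxin does not cut, stood at 35.3, 42.3, 38.1 and 41.2 CPM in IS males and 44.5, 48.2, 46.8 and 47.4 in FID males, without overlap. Its log2 fold change was 0.25 (SE 0.081, edgeR adjusted p = 0.786), short of the fold limit without IS replicate 1. The difference between the sexes in this effect was -0.41 (SE 0.11, edgeR adjusted p = 0.263), and female Vamp7 was 37.7 to 46.9 CPM in IS and 37.2 to 40.7 in FID. Vamp3, known as cellubrevin, was lower in FID than in IS males at -0.22 (SE 0.083, edgeR adjusted p = 0.786), also without overlap, a call lost without IS replicate 3 or FID replicate 3. Vamp4, a SNARE of the trans-Golgi network and endosomes, stood at 66.7, 71.3, 69.2 and 62.2 CPM in FIDch males and 76.3, 85.3, 72.4 and 79.8 in FID males, without overlap, a log2 fold change of -0.23 (SE 0.070, edgeR adjusted p = 0.123). That call was lost without FID replicate 2 or FIDch replicate 4. Against IS, Vamp4 in FIDch males had a log2 fold change of -0.18 (SE 0.069, edgeR adjusted p = 0.522), and the difference between the sexes in this effect, 0.27 (SE 0.072, edgeR adjusted p = 0.0568), missed the adjusted threshold in edgeR and met it in DESeq2.

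Snap25, the target SNARE that gives the fusion bundle a pair of its helices, set the male FIDch rats apart from the other males, as Vamp4 also did by a narrower margin. Male levels were 2499, 2588, 2376 and 2361 CPM in IS, 2352, 2253, 2305 and 2179.8 in ISch, 2255, 2539.6, 2232 and 2700.1 in FID and 2045, 2064, 2095 and 2050.5 in FIDch. All 4 FIDch males lay below all 12 others, and the FIDch values were closer together than those of any other male group. The log2 fold change was -0.25 (SE 0.050, edgeR adjusted p = 0.108) against IS and -0.24 (SE 0.062, edgeR adjusted p = 0.0820) against FID. The second call missed the fold limit without FID replicate 4, the library with the most choroid plexus RNA. Over all settings the adjusted p against IS ranged from 0.00415 to 0.410, and the criterion was met in each of the 8 fits with 1 library left out. In the test of the 4 male diets the adjusted p was 0.0724. ISch males were lower than IS males by less than the fold limit, at -0.12 (SE 0.046, edgeR adjusted p = 0.441), without overlap. Female Snap25 was 2131 to 2260.4 CPM in IS, 2020.2 to 2077 in ISch, 2190.3 to 2313 in FID and 2032 to 2331 in FIDch, with a log2 fold change of -0.11 (SE 0.032, edgeR adjusted p = 0.124) in ISch against IS. The difference between the sexes in FIDch against IS was 0.24 (SE 0.067, edgeR adjusted p = 0.0598) in edgeR and passed the adjustment in DESeq2.

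**Figure D3:**
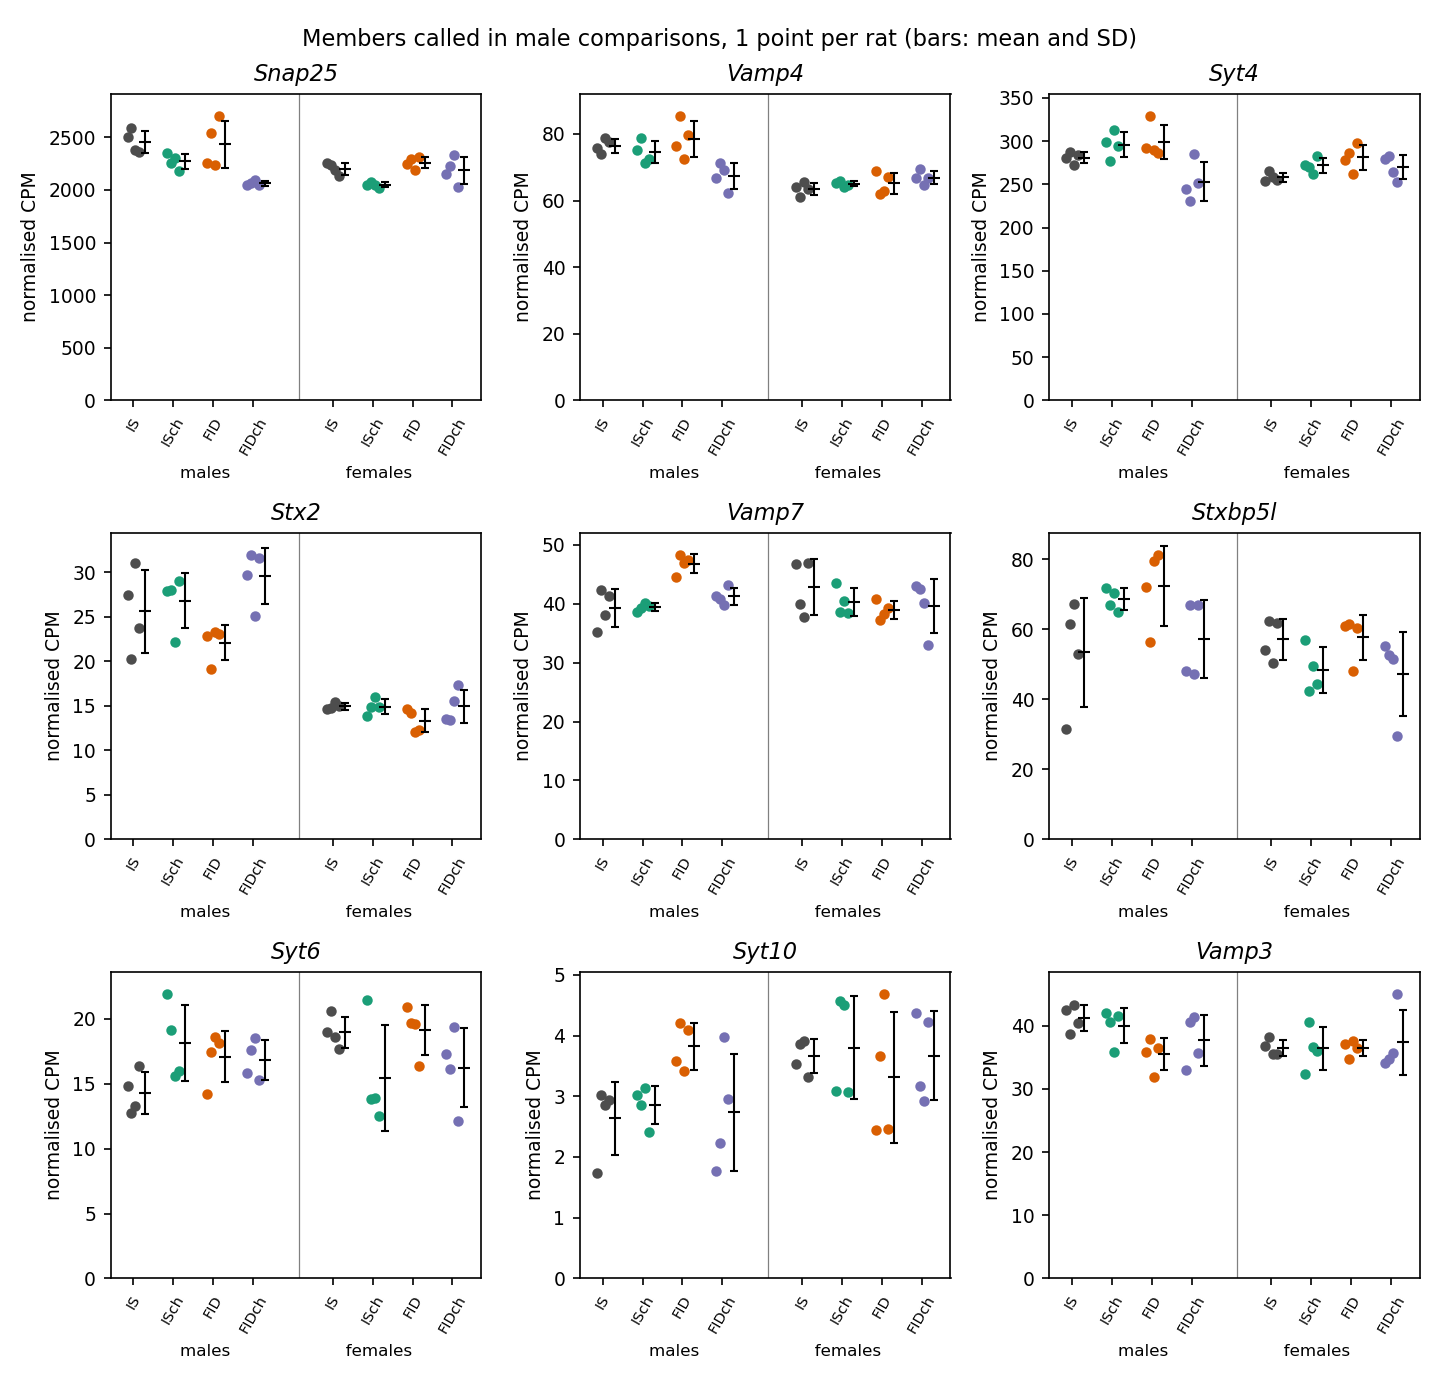
Normalised CPM (vertical axis, from 0) of Snap25, Vamp4, Syt4, Stx2, Vamp7, Stxbp5l, Syt6, Syt10 and Vamp3 in each of the 32 rats, by diet group, males on the left and females on the right of each panel. Bars give the mean and SD of 4 rats, and the 4 male FIDch points of Snap25 lie between 2045 and 2095 CPM, below all other males.

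The syntaxins of the plasma membrane moved one by one. Stx1a, which pairs with Snap25 at the release site, stood at 101, 94.2, 97.9 and 98.2 CPM in IS, 86.01, 78.8, 86.4 and 80.5 in ISch, 109, 101, 101 and 96.9 in FID and 80.7, 90.4, 97.98 and 80.9 in FIDch in females. All ISch females lay below all IS females, while FIDch overlapped IS. Its log2 fold change was -0.24 (SE 0.046, edgeR adjusted p = 0.0240) in ISch against IS, a call met in each of the 8 fits with 1 library left out, with adjusted p from 0.000617 to 0.0902 over all settings. In FIDch against FID it was -0.22 (SE 0.068, edgeR adjusted p = 0.120), lost without FID replicate 1 or FIDch replicate 1 or 4, and in FIDch against IS -0.16 (SE 0.066, edgeR adjusted p = 0.332). In males Stx1a was called in no comparison, and its groups overlapped.

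Stx2, a syntaxin of the plasma membrane found in many tissues, was 22.9, 19.1, 23.3 and 23.1 CPM in FID males and 29.7, 31.9, 25.04 and 31.5 in FIDch males. These groups did not overlap, and the log2 fold change was 0.40 (SE 0.10, edgeR adjusted p = 0.0781), met in each of the 8 fits with 1 library left out. IS males (27.4, 20.2, 31.01 and 23.7 CPM) and ISch males (27.9, 28.01, 22.2 and 29.04 CPM) overlapped both groups. Stx4, which serves exocytosis outside the synaptic vesicle pool, was 41.1, 33.01, 35.7 and 36.4 CPM in IS males and 31.4, 30.4, 29.3 and 33.5 in FID males, a log2 fold change of -0.24 (SE 0.090, edgeR adjusted p = 0.786). The groups overlapped through FID replicate 4, and the call was lost without IS replicate 1 or FID replicate 3. In females Stx4 was 25.5, 24.3, 25.4 and 27.7 CPM in FID and 29.3, 29.02, 28.4 and 32.1 in FIDch, without overlap, a log2 fold change of 0.20 (SE 0.066, edgeR adjusted p = 0.136) that was not called without FID replicate 2 or FIDch replicate 4. Of the 9 other syntaxins, which work at endosomes, Golgi and endoplasmic reticulum, 8 were tested in each of the 8 comparisons and 0 were called by edgeR. Stx11 was tested in female FIDch against FID alone and was not called.

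Some of the synaptotagmins are calcium sensors of release. Syt1, the sensor of fast synchronous release, was called in no pair at the fold limit, but it was the 1 member whose choline effect differed between the sexes. Female levels were 2075, 2059, 2025 and 2056 CPM in IS and 1961, 1739, 1846 and 1855 in ISch, without overlap, a log2 fold change of -0.15 (SE 0.040, edgeR adjusted p = 0.0764). Male levels were 1869, 1975, 1878 and 1917 CPM in IS and 1992, 1914, 2045 and 2135 in ISch, which overlapped, a log2 fold change of 0.08 (SE 0.045, edgeR adjusted p = 0.579). The difference of these effects, female minus male, was -0.23 (SE 0.060, edgeR adjusted p = 0.0459) in the fit of all 32 libraries. It is close to the threshold: the adjusted p ranged from 0.0112 to 0.111 over all settings, and 20 of the 32 fits with 1 library left out lost the call, with the difference between -0.26 and -0.20. In this test 1.31% of all 15520 genes passed the adjustment and 15.6% had an unadjusted p under 0.05, beside 1 and 9 of 53 members, and without female ISch replicate 1 the count was 3. For FID against IS and FIDch against IS edgeR found 0 members whose effect differed between the sexes, with 7 at an unadjusted p under 0.05 in each and 0 and 3 by DESeq2. The count for FIDch was 2 without male IS replicate 3, male FID replicate 2 or female FIDch replicate 3. The background shares were 0.0258% and 1.31% at the adjusted p, and 8.61% and 15.8% at the unadjusted p.

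Syt2, a fast sensor best known from hindbrain terminals and parvalbumin interneurons, stood at 10.4, 12.1, 9.48 and 11.1 CPM in IS, 9.39, 7.56, 7.62 and 8.84 in ISch, 11.997, 11.6, 10.5 and 14.2 in FID and 10.9, 9.82, 8.71 and 4.78 in FIDch in females. ISch lay below IS without overlap, at a log2 fold change of -0.37 (SE 0.11, edgeR adjusted p = 0.120), a call lost with the 4 groups in a single fit. FIDch was lower than FID at -0.49 (SE 0.20, edgeR adjusted p = 0.235), but the groups overlapped, FIDch replicate 4 was the lowest female, and the call was lost without FID replicate 1, 2 or 4 or FIDch replicate 3. Pvalb itself, the parvalbumin gene, was 36.1 to 42.4 CPM in IS, 36.7 to 43.6 in ISch, 41.7 to 46.8 in FID and 33.3 to 43.2 in FIDch females. Syt7, a slow sensor of high affinity that serves facilitation and asynchronous release, moved the other way in ISch females. Its log2 fold change against IS was 0.27 (SE 0.077, edgeR adjusted p = 0.111), with values of 159 to 177 CPM above the 117 to 154 CPM of IS, and the call was lost without IS replicate 3.

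In males the synaptotagmins with calls were Syt3, Syt4, Syt6 and Syt10. Syt4, which does not drive fast release and sits on dense-core and Golgi-derived vesicles, was 231 to 285 CPM in FIDch and 286 to 329 in FID, without overlap, a log2 fold change of -0.24 (SE 0.070, edgeR adjusted p = 0.106) that missed the fold limit without FID replicate 2. Syt3, a sensor of high calcium affinity, had a log2 fold change of 0.21 (SE 0.080, edgeR adjusted p = 0.196) in the same comparison, with overlap, lost without FID replicate 4 or FIDch replicate 1 or 4. Syt6 was 14.8, 12.8, 13.2 and 16.3 CPM in IS and 21.9, 19.1, 15.6 and 15.99 in ISch males. The groups overlapped, and the log2 fold change of 0.33 (SE 0.13, edgeR adjusted p = 0.451) lost its call without ISch replicate 1 or 2 or IS replicate 2 or 3. The names of ISch replicates 1 and 2 end in A, and without both the call was lost as well. Syt10, known from insulin-like growth factor release, was scarce at 1.74, 3.01, 2.86 and 2.94 CPM in IS and 3.58, 4.20, 3.41 and 4.08 in FID males, without overlap. Its log2 fold change was 0.54 (SE 0.22, edgeR adjusted p = 0.786), lost in DESeq2 and without IS replicate 1 or FID replicate 2 or 4.

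Complexins bind the assembled SNARE bundle. Cplx1 in females was 519 to 543 CPM in IS and 420.0 to 512 in ISch, without overlap, a log2 fold change of -0.21 (SE 0.056, edgeR adjusted p = 0.0800) that missed the fold limit without ISch replicate 2 or 3. Cplx2 was called in no comparison. Cplx3, known from ribbon synapses of the retina and from deep-layer neurons of the cortex, was scarce and had the largest fold changes of all members. Its female levels were 1.57, 1.93, 1.76 and 1.51 CPM in IS, 1.56, 1.31, 1.90 and 3.80 in ISch, 5.41, 2.46, 2.58 and 3.71 in FID and 1.14, 0.941, 1.77 and 1.66 in FIDch. Every FID female lay above every IS and every FIDch female, and ISch replicate 4 reached into the FID range. The log2 fold change was 1.07 (SE 0.25, edgeR adjusted p = 0.113) in FID against IS and -1.38 (SE 0.30, edgeR adjusted p = 0.0396) in FIDch against FID, on 24 to 133 counts a library. Both calls held in each of the 8 fits with 1 library left out, and the adjusted p of the second ranged from 0.000820 to 0.114 over all settings.

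Neocortex borders the hippocampus, and its markers were looked at in the same females. Of 7 markers (Tbr1, Ccn2, Nxph4, Rorb, Fezf2, Foxp2 and Cux2), a list added after the data were seen, 2 were higher in FID than in IS and 5 were lower in FIDch than in FID. In ISch against IS, where Cplx3 was not called at a log2 fold change of 0.34, Tbr1 and Rorb were higher and Ccn2 was lower. In FIDch against IS, where Cplx3 was not called at -0.31, Ccn2 and Fezf2 were lower and 0 were higher. Tbr1 was 16.5, 15.8, 15.9 and 15.8 CPM in IS, 15.6, 18.5, 18.2 and 22.3 in ISch, 21.4, 18.5, 18.8 and 22.5 in FID and 16.3, 15.4, 13.98 and 14.2 in FIDch. Fezf2 had a log2 fold change of -0.63 (SE 0.085, edgeR adjusted p = 0.00565) in FIDch against FID. The 7 genes summed to 92.2 to 106 CPM in IS, 88.2 to 107 in ISch, 104 to 124 in FID and 76.7 to 92.6 in FIDch females, none was at 0 throughout, and hippocampal neurons express several of them. Their part in the Cplx3 result was not tested. In bulk tissue, fewer cells of a type and less RNA per cell cannot be told apart.

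**Figure D4:**
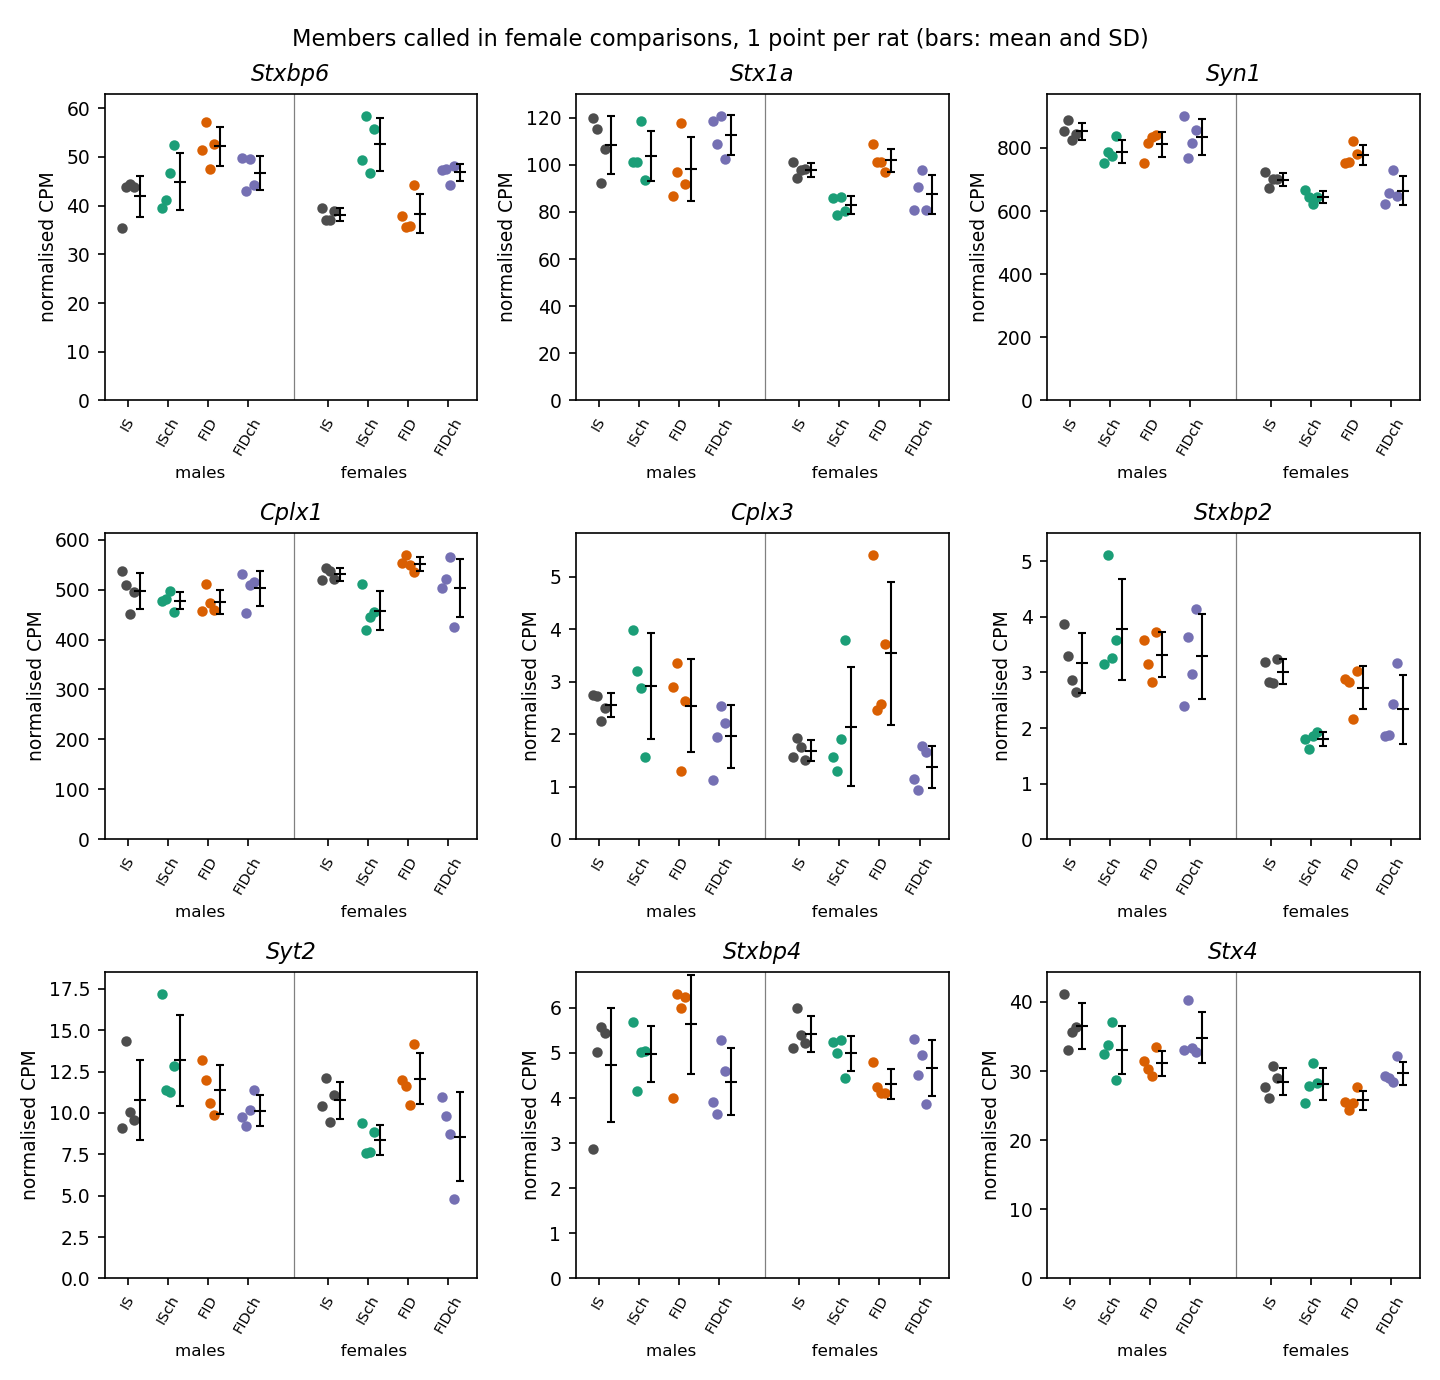
Normalised CPM (vertical axis, from 0) of Stxbp6, Stx1a, Syn1, Cplx1, Cplx3, Stxbp2, Syt2, Stxbp4 and Stx4 in each of the 32 rats, by diet group, males on the left and females on the right of each panel. Bars give the mean and SD of 4 rats, and the female ISch and FIDch points of Stxbp6 (44.2 CPM and above) lie above the female IS points (39.6 CPM and below).

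The syntaxin-binding proteins held the member called most often, Stxbp6. Amisyn, its product, carries a Vamp-like coil and is known to restrain the assembly of release-ready SNARE bundles. Female levels were 39.6, 37.1, 36.99 and 38.9 CPM in IS, 49.4, 58.4, 46.8 and 55.8 in ISch, 37.9, 35.5, 35.8 and 44.2 in FID and 47.3, 47.6, 44.2 and 48.2 in FIDch. Both choline groups lay above both groups without choline, narrowly so for FID replicate 4, which came within the last digit of the lowest FIDch rat. The log2 fold change was 0.46 (SE 0.070, edgeR adjusted p = 0.0103) in ISch against IS, 0.30 (SE 0.050, edgeR adjusted p = 0.0261) in FIDch against IS and 0.29 (SE 0.074, edgeR adjusted p = 0.0762) in FIDch against FID, and each call was met in all 8 fits with 1 library left out. Over all settings the adjusted p ranged from 1.88e-06 to 0.0470, from 0.000396 to 0.118 and from 0.0167 to 0.199. In FID against IS females its log2 fold change was 0.01 (SE 0.068, edgeR adjusted p = 0.980).

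In males, Stxbp6 was called in FID against IS alone. Levels were 35.5, 43.8, 44.4 and 43.9 CPM in IS, 39.4, 41.2, 46.7 and 52.5 in ISch, 51.4, 57.1, 47.5 and 52.6 in FID and 49.8, 43.1, 49.6 and 44.3 in FIDch. FID lay above IS without overlap, at a log2 fold change of 0.31 (SE 0.093, edgeR adjusted p = 0.786), and ISch against IS stood at 0.10 (SE 0.10, edgeR adjusted p = 0.751). The male FID call was met in each of the 8 fits with 1 library left out, with log2 fold changes from 0.24 to 0.36, those without IS replicate 1 and without FID replicate 4 included. The difference between the sexes was -0.32 (SE 0.12, edgeR adjusted p = 0.454) in FID against IS and 0.36 (SE 0.12, edgeR adjusted p = 0.141) in ISch against IS, and neither passed the adjustment.

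Markers of the dentate gyrus were read in the same rats. In females Prox1 was 112, 124, 123.1 and 135 CPM in IS, 147, 183, 167 and 154 in ISch, 120.5, 116, 115 and 116 in FID and 161, 148, 161 and 140.5 in FIDch, so that both choline groups lay above both others. Its log2 fold change was 0.39 (SE 0.074, edgeR adjusted p = 0.0227) in ISch against IS and 0.39 (SE 0.052, edgeR adjusted p = 0.00559) in FIDch against FID. Dsp, or desmoplakin, was 11.9 to 18.2 CPM in ISch and 10.1 to 16.1 in FIDch females, and 1.60 to 2.22 in IS and 1.37 to 1.86 in FID. Its log2 fold change in ISch against IS, 2.87, was far from those of Prox1, C1ql2 (0.51) and Calb1 (0.34). In males Dsp was 1.57, 1.07, 7.27 and 11.5 CPM in ISch and 8.10, 2.24, 8.27 and 10.1 in FIDch, and was called in no comparison. The names of the male libraries with 1.57, 1.07 and 2.24 CPM end in A. In a list of 6 dentate markers added after the data were seen (Prox1, C1ql2, Calb1, Dsp, Tdo2 and Lct), 4 of the 4 tested were higher in ISch and in FIDch than in IS, 2 (Prox1 and Dsp) were higher in FIDch than in FID, and Tdo2 had at most 3 counts in every library. The summed level of the list was 262 to 304 CPM in IS, 374 to 409.9 in ISch, 284 to 311 in FID and 344 to 412 in FIDch. Of the CA1 markers Wfs1, Fibcd1, Mpped1 and Pou3f1, also added later, Fibcd1 was tested in female FIDch against FID alone. The other 3 were tested in all 8 comparisons, 0 of the 4 were called by edgeR's criterion, and the 4 summed to 622 to 806 CPM in males and 502 to 1100.1 in females. In males C1ql2 and Calb1 were lower in ISch than in IS, and Calb1 was lower in FIDch than in IS and in FID, with summed dentate levels of 282 to 336 CPM in IS, 288 to 317 in ISch, 304 to 342 in FID and 286 to 321 in FIDch. The part of these markers in the Stxbp6 result was not tested.

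**Figure D5:**
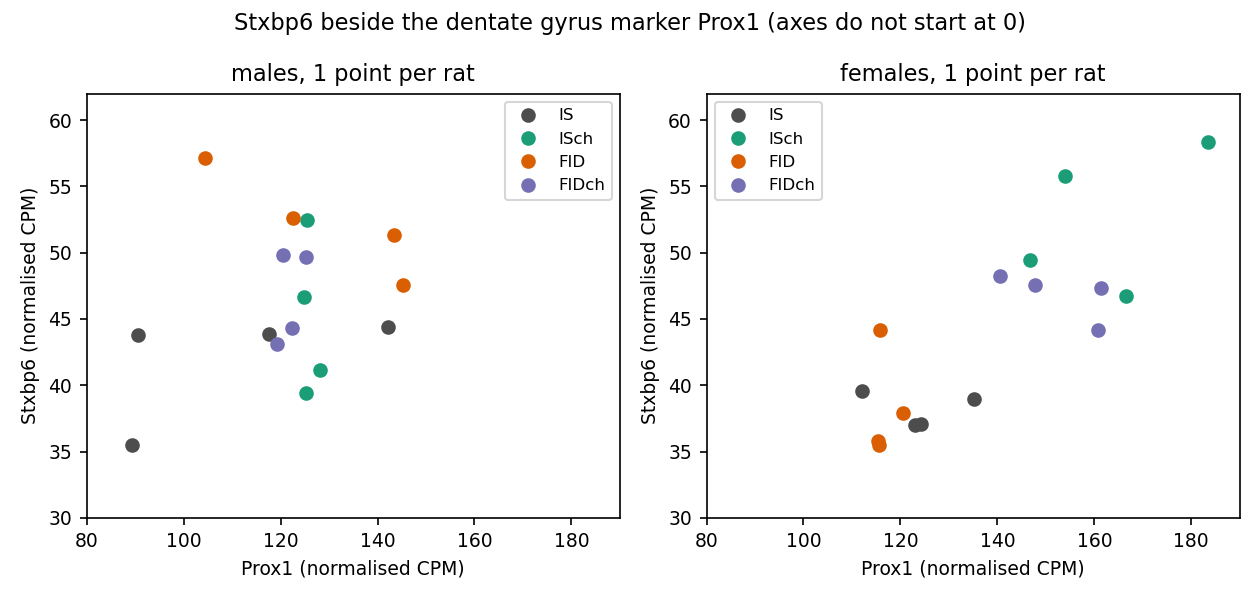
Stxbp6 (vertical axis) against the dentate gyrus marker Prox1 (horizontal axis), both in normalised CPM on axes that do not start at 0, with 1 point for each rat, coloured by diet group, males in the left and females in the right panel. The 8 females of the choline groups lie at 140.5 CPM of Prox1 or more and the 8 others at 135 or less, while the male groups overlap along the Prox1 axis.

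Stxbp2, or Munc18-2, the form used outside neurons, was scarce, at 3.18, 2.82, 2.81 and 3.24 CPM in IS, 1.81, 1.63, 1.85 and 1.93 in ISch, 2.89, 2.83, 2.16 and 3.03 in FID and 1.85, 1.88, 2.43 and 3.17 in FIDch in females. All ISch females lay below all IS females, a log2 fold change of -0.74 (SE 0.15, edgeR adjusted p = 0.0307) on 30 to 77 counts a female library, and the difference between the sexes was -0.98 (SE 0.28, edgeR adjusted p = 0.0682). Its call was met in each of the 8 fits with 1 library left out, and the adjusted p ranged from 0.0208 to 0.128 over all settings. Of the microglial markers, Cx3cr1 and P2ry12, 2 of 6 tested, were lower in ISch than in IS females. Cx3cr1 was also lower in FIDch than in IS and in FID. Stxbp2 was not called in FIDch against either, with means of 2.33 CPM in FIDch, 3.01 in IS and 2.72 in FID. Its log2 fold change in FIDch against IS was -0.37. The 6 microglial genes summed to 182 to 206 CPM in ISch, 213 to 223 in IS, 189 to 197 in FIDch and 207 to 226 in FID. Csf1r gave the largest part of each sum, and none was at 0. Their part in the Stxbp2 result was not tested.

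Stxbp5l, or tomosyn-2, had calls in 3 comparisons, each with overlapping groups. Male levels were 31.6, 61.4, 67.3 and 52.99 CPM in IS, 71.8, 66.9, 70.4 and 65.02 in ISch, 72.02, 56.2, 79.6 and 81.1 in FID and 47.9, 66.9, 47.1 and 66.9 in FIDch, and female levels were 53.9, 62.2, 50.3 and 61.8 CPM in IS, 57.01, 42.4, 49.6 and 44.2 in ISch, 60.8, 61.5, 48.01 and 60.3 in FID and 55.2, 52.5, 51.5 and 29.4 in FIDch. The log2 fold change was 0.44 (SE 0.19, edgeR adjusted p = 0.786) in male FID against IS, -0.36 (SE 0.14, edgeR adjusted p = 0.209) in male FIDch against FID and -0.24 (SE 0.098, edgeR adjusted p = 0.251) in female ISch against IS. Male IS replicate 1 was the lowest male, and without it the first call was lost, as it was without IS replicate 4 or FID replicate 1, 3 or 4. The second was lost without FID replicate 3 or 4 or FIDch replicate 1 or 3, and the third without IS replicate 2 or 4 or ISch replicate 2 or 4. Both of these were also lost with the 4 groups in a single fit. Stxbp4, which binds syntaxin-4, was 5.10, 5.99, 5.40 and 5.21 CPM in IS and 4.80, 4.24, 4.10 and 4.12 in FID females, without overlap, a log2 fold change of -0.33 (SE 0.11, edgeR adjusted p = 0.289) met in each of the 8 fits with 1 library left out. Snap91, which recruits clathrin for vesicle recycling, was called in no comparison.

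Some rats stood apart over several members. Male IS replicate 1 was the lowest of all 16 males in Stxbp6, Stxbp5l, Stxbp4, Syt10, Syt7, Syt2, Syn2, Syn3, Cplx2 and Vamp7. Among the named members it was also the highest male in Cplx1 (536 CPM) and Stx4 (41.1 CPM). Its 5 neuron markers (Rbfox3, Map2, Tubb3, Camk2a and Nefl) summed to 4737 CPM, the lowest male value. The next lowest was close to it, with 4753 to 6028 CPM in the other 15. Female FIDch replicate 4 was the lowest of all 16 females in Cplx2, Stxbp5l, Stxbp4, Syn2, Syt2, Syt4, Syt6 and Vamp7. Among the named members it was also the highest female in Stx2 (17.3 CPM), Stx4 (32.1 CPM) and Vamp3 (45.0 CPM). The same 5 markers summed to 4715 CPM there, the lowest female value, beside 5305 to 6327 in the other 15. The male libraries whose names end in A are ISch replicates 1 and 2 and FIDch replicate 2. Their levels of the microglial marker P2ry12 were 11.1, 10.7 and 8.67 CPM, beside 17.4 to 27.03 in the other males. Whether these libraries were extracted or sequenced again is not given in the sources used here.

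The wider vesicle cycle was followed through 31 further genes, among them the fusion ATPase Nsf, the vesicle proteins Syp, Syngr1 and Sv2a, the priming factors Unc13a and Cadps2, endocytic genes such as Dnm1 and Amph, and the transmitter transporters Slc17a6, Slc17a7 and Slc32a1. Of these, 30 had a single entry in the tables and passed the filter. In male FID against IS 2 were higher (Rab3c and Doc2b) and 0 lower by edgeR's criterion, beside 2.34% and 2.28% of all genes. In ISch against IS 1 was higher (Dnm3), beside 4.52% of all genes higher. In FIDch against IS 1 was higher (Doc2b), beside 2.91% of all genes higher. In FIDch against FID 3 were lower (Synpr, Amph and Slc17a6), beside 7.24% of all genes lower. In females 3 were higher in FID than in IS (Dnm3, Slc17a6 and Slc32a1), beside 3.08% of all genes higher. In ISch against IS 4 were lower (Napb, Syngr1, Doc2a and Sh3gl2), beside 5.15% of all genes lower. In FIDch against IS 3 were higher and 2 lower, beside 4.16% and 4.82% of all genes. In FIDch against FID 6 were lower, beside 7.07% of all genes lower.

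An adjusted p under 0.05 was reached by 1 of the 30 in female ISch against IS and by 3 in female FIDch against FID, by 5 over the 4 female diets (Synpr, Syngr1, Rab3a, Cadps2 and Slc17a6) and by 1, Synpr, in the sex difference in FIDch against IS. Of all genes, 2.54%, 2.28%, 5.34% and 1.31% did so in these 4 tests. Syngr1, a tetraspan protein of synaptic vesicles, had a log2 fold change of -0.46 (SE 0.076, edgeR adjusted p = 0.0153) in ISch against IS. Slc17a6, the vesicular glutamate transporter of subcortical and some cortical neurons, was 24.8, 24.1, 20.8 and 27.7 CPM in FID and 14.2, 13.2, 13.9 and 18.3 in FIDch females, a log2 fold change of -0.71 (SE 0.12, edgeR adjusted p = 0.0145). Slc32a1, the transporter of inhibitory transmitters, had -0.25 (SE 0.055, edgeR adjusted p = 0.0425) in the same comparison, and Cadps2, which primes dense-core vesicles, -0.50 (SE 0.084, edgeR adjusted p = 0.0145). The median log2 fold change of the 30 genes was -0.12 in female FIDch against FID, beside -0.05 for the members and -0.0013 for all genes.

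Among the neuron markers Nefl was lower in male FIDch than in IS, and 0 of the 5 were called in any female pair by edgeR's criterion, although Nefl had an adjusted p under 0.05 in female ISch against IS, and Nefl and Tubb3 had an adjusted p under 0.05 over the 4 female diets. Of the 6 oligodendrocyte markers, Mbp was called lower in male FID against IS and higher in male FIDch against FID, and 0 were called in females by the same criterion. The astrocyte marker Aldh1l1 was higher in ISch and in FIDch than in IS females, higher in FIDch than in FID females, and lower in ISch and in FID than in IS males, Aqp4 was lower in male and higher in female FIDch against FID, and Gja1 was lower in female FIDch than in IS. Of the 5 astrocyte markers, the edgeR adjusted p was under 0.05 for 1 in female ISch against IS (Aldh1l1), 2 in female FIDch against FID (Aldh1l1 and Aqp4), 3 over the 4 female diets and 1 in the sex difference in ISch. Of 3 endothelial markers with a single entry, Cldn5 was lower in male FID and ISch than in IS and higher in FIDch than in FID, while Cdh5 and Flt1 were lower in female FIDch than in IS and in FID, in that order. Interneuron markers had 1 call, lower Vip in male FIDch against FID, and the 2 blood markers with a single entry had 0 by edgeR's criterion. Thalamic markers had 2 calls (Lef1 and Prkcd) and striatal markers 6 over the 8 comparisons, and summed to at most 86.2 and 105 CPM in any library. What these markers had to do with the member results was not tested.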

How the data were processed

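RNA-seq was read from the read counts per gene that the authors deposited, 1 table of 16 libraries for each sex, made from hippocampal RNA of rats 65 days old. By the submitters' processing notes and methods, reads were checked with FastQC, trimmed with Trimmomatic, aligned with HISAT2 to Rnor_6.0 and counted with featureCounts of Subread. The annotation release and strand setting of these counts are not given there. From these counts, R 4.3.3 with edgeR 4.0.16 (TMM, filterByExpr, quasi-likelihood test) and limma 3.58.1 made the tests reported, and DESeq2 1.42.0 those of an alternative. Pairs of groups were fitted alone, and all 4 groups of a sex or all 32 libraries for the tests of diets, interaction and sex difference. Tests ran on all genes, members being picked out afterwards.

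Pairs of groups were called where the log2 fold change lay beyond 0.2 in either direction with an unadjusted p under 0.05, the study's thresholds set on the quasi-likelihood test chosen here, and other tests at a Benjamini-Hochberg adjusted p under 0.05. Named are members called in at least 1 of the 8 pairs, members with an adjusted p under 0.05 in any test, and 11 core genes of release whatever their values, 26 in all. The rule held 2 further core genes that are not reported here. Values of every rat are given in the text or a figure for members called in 2 or more pairs or with the 2 largest changes of a pair, and for some others. Members, the marker lists and the vesicle cycle list were chosen with earlier results of these data known, and the dentate, CA1 and neocortex lists after the data were seen. Alternatives were RLE size factors, all genes with at least 1 count, the replicate number as a block, DESeq2, the 4 groups in a single fit, the male libraries with names ending in A left out, and each library left out.

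Male libraries held 3515806 to 9517503 counts and female ones 18439999 to 26616318. Over the 48 pairs of libraries of the same group, the chi-square per gene, which is 1 where libraries differ by counting alone, ran from 2.02 to 25.2, and the 3 highest all involve female FIDch replicate 4. Promoters came from RefSeq's GRCr8 table by gene symbol, and 23 of the 56 members overlap another gene there, so their counts are less certain.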

Additional observations from a re-analysis of the deposited data

Results flagged for a closer look

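Among the 26 named members, 13 of 208 groups of 4 rats held a rat far from the other 3 by Dixon's test, and chance flags about 1 in 20 groups. In males these were Stx2 in ISch replicate 3 (22.2 against 27.9 to 29.04 CPM in the other rats of the group) and in FID replicate 2 (19.1 against 22.9 to 23.3 CPM), Stx4 in FIDch replicate 2 (40.3 against 32.7 to 33.3 CPM), Stxbp4 in FID replicate 1 (3.99 against 6.003 to 6.30 CPM), Syt4 in FID replicate 2 (329 against 286 to 292 CPM), and Stxbp6 (35.5 against 43.8 to 44.4 CPM) and Syt10 (1.74 against 2.86 to 3.01 CPM) in IS replicate 1. FIDch replicate 2 is also the smallest library.

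In females they were Cplx2 in IS replicate 3 (952 against 1045 to 1061 CPM), Stxbp5l in FID replicate 3 (48.0 against 60.3 to 61.5 CPM) and in FIDch replicate 4 (29.4 against 51.5 to 55.2 CPM), Syn2 in FID replicate 4 (452 against 477 to 479 CPM), Syt6 in ISch replicate 1 (21.5 against 12.5 to 13.9 CPM) and Vamp3 in FIDch replicate 4 (45.0 against 34.05 to 35.7 CPM). The difference between the sexes passed its test for Syt1, whose effect in ISch against IS differed between females and males by -0.23 on the log2 scale. Sex, kit and batch cannot be told apart in it.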

How the results depend on the processing

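Among the gene results, 36 of them gave 520 values under other settings. Of these values, 429 stayed on their side of the threshold and 91 lost the call. In edgeR or DESeq2, 0 reversed direction, though the tests over the 4 diets have no direction to keep or reverse. Of the 91, 81 were fits with 1 library left out. With each library left out in turn, members called ranged as follows in males: 3 to 8 in FID against IS, 0 to 3 in ISch against IS, 1 to 4 in FIDch against IS, 4 to 8 in FIDch against FID and 0 to 1 over the 4 diets. In females the ranges were 2 to 4, 5 to 11, 1 to 3, 4 to 9 and 3 to 10 in the same order, and for the difference between the sexes 0 to 3 in ISch and 0 to 2 in FIDch against IS. The interactions and the sex difference in FID stayed at 0 in edgeR throughout.

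Other settings moved few member counts by more than 1.5 times. Male ISch against IS went from 1 to 2 with all genes with at least 1 count and with DESeq2, and the test of the 4 male diets from 0 to 1 with both. The test of the 4 female diets went from 4 to 10 with DESeq2. The sex difference in ISch went from 1 to 0 with all genes with at least 1 count, and that in FIDch from 0 to 3 with DESeq2. For adjusted p in pairs of groups, male FIDch against FID went from 0 to 1 with all genes with at least 1 count and with the 4 groups in one fit and to 2 with DESeq2, and male FIDch against IS from 0 to 1 with DESeq2. In females, FID against IS went from 0 to 2 and ISch against IS from 3 to 7 with DESeq2, FIDch against IS from 1 to 0 with the 4 groups in one fit, and FIDch against FID from 1 to 3 with DESeq2 and to 4 with the 4 groups in one fit. The cause was not tested.

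With the replicate number as a block (replicate block), male ISch against IS had 2 members called and the sex difference in ISch 0, and no other member count at the thresholds of its test moved by more than 1.5 times. Members with an adjusted p under 0.05 went from 3 to 1 in female ISch against IS and from 1 to 0 in FIDch against IS and against FID. Of the gene results, the calls lost were Stxbp5l in female ISch against IS, Cplx3 over the 4 female diets and Syt1 in the sex difference in ISch. The numbers do not pair the rats: correlations of deviations between libraries of the same number ran from -0.15 to 0.22 in males and -0.13 to 0.15 in females, and 5 of 16 libraries in each sex correlated best with their own number.

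Counts of all genes called by edgeR, or by DESeq2 where named, moved by more than 1.5 times as follows. Male FID against IS had 640 in the fits reported and 1023 (all genes with at least 1 count) and 392 to 1236 with 1 library left out. Male ISch against IS had 1125 in the fits reported and 679 (without the male libraries whose names end in A) and 815 to 1811 with 1 library left out. Male FIDch against IS had 838 in the fits reported and 681 to 1267 with 1 library left out. The test of any difference among the 4 male diets had 107 in the fits reported and 202 (all genes with at least 1 count), 304 (DESeq2), 47 (without the male libraries whose names end in A) and 53 to 140 with 1 library left out. The test of any difference among the 4 female diets had 799 in the fits reported and 1662 (DESeq2) and 525 to 1210 with 1 library left out. The test of the interaction of iron and choline in males had 1 in the fits reported and 3 (all genes with at least 1 count), 0 (replicate block), 131 (DESeq2) and 0 to 8 with 1 library left out. The test of the interaction of iron and choline in females had 1 in the fits reported and 0 (replicate block), 57 (DESeq2) and 0 to 25 with 1 library left out. The test of the difference between males and females in FID against IS had 4 in the fits reported and 10 (replicate block), 15 (DESeq2) and 2 to 7 with 1 library left out. The test of the difference between males and females in ISch against IS had 203 in the fits reported and 389 (DESeq2) and 93 to 425 with 1 library left out. The test of the difference between males and females in FIDch against IS had 203 in the fits reported and 125 (all genes with at least 1 count), 397 (DESeq2) and 96 to 309 with 1 library left out.

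Depth limits the scarce members, and intervals cover counting error only. Male libraries were shallower than female ones, and a call in 1 sex alone does not show a difference between the sexes. With 4 rats a group, effects near the fold limit turn on single rats. Reads of overlapping genes were not separated.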

Other observations

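Hemoglobin and Alas2, the blood markers with a single entry, summed to 27.03 to 81.8 CPM in males and 19.1 to 67.6 CPM in females. Hbb gave most of each sum. The interneuron markers Gad1, Gad2, Pvalb, Sst and Vip summed to 657 to 831 CPM in males and 709 to 853 in females.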
